A study of Mus musculus with 8 samples.

Results

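The smooth muscle marker genes Acta2, Tagln, Myh11, Cnn1, Smtn, Mylk, Lmod1, Myl9 and Tpm2 were followed through RNA sequencing of 8 mouse heart samples. The genes were picked by name, with earlier results of these data known, so the list as a whole was not tested. All 9 were among the 11704 protein-coding genes with values. In 4 samples an adeno-associated virus of serotype 9 carried mouse Fgf17, a secreted fibroblast growth factor (AAV-FGF17), and in 4 samples the virus was its control vector. Both groups received the virus under the skin as newborns, and hearts were taken at 8 to 10 weeks of age. The data columns of both groups carry the word sham, and whether the animals were operated on is not stated in the sample labels. The labels give neither strain, sex nor promoter of the vector, and no untransduced hearts were analysed here. Values are FPKM, fragments per kilobase of gene scaled to the library total, and the read depth behind them is unknown.

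Smooth muscle cells ring the coronary arteries and line the great vessels at the base of the heart. Their contraction is switched on when myosin light chain kinase phosphorylates the regulatory light chain of smooth muscle myosin, which then pulls on actin filaments dressed with tropomyosin and calponin. The genes of this machinery are known targets of serum response factor and its partner myocardin, which act at a short promoter element, the CArG box. Several of the genes are also used outside mature smooth muscle, in pericytes, activated fibroblasts or striated muscle, and Acta2 and Tagln are active in the embryonic heart.

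The promoters of Acta2 and Myl9 are shown because they were the matched members whose start region held CArG-type elements. RefSeq promoter sequences of GRCm38.p6, from 250 bases before to 50 after the start, were matched for 7 of the 9 members. The strict CArG box, which is the same on both strands, was in 1 of these 7 and in 1.63% of all 32851 promoters of that length. A form with 1 G or C in the A and T core was in 2 of the 7 and in 8.5% of all promoters. Acta2 held this looser form at positions -84 to -75 and -34 to -25 from the start. Myl9 held the strict form at -161 to -152 and the looser form at -99 to -90. The element CATTCC, searched on both strands, was in 4 of the 7 (Acta2, Lmod1, Mylk and Smtn) and in 14.7% of all promoters. Capitals mark the CArG-type matches, which are letters found in the window and not shown to be bound sites.
Acta2 promoter (chr19:34255324-34255623, minus strand): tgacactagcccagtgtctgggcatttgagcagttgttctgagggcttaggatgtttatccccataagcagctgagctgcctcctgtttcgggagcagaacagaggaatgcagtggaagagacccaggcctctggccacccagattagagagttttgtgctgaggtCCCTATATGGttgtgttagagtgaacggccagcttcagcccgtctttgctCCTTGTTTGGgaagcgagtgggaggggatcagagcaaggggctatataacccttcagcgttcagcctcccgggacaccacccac
Myl9 promoter (chr2:156775214-156775513, plus strand): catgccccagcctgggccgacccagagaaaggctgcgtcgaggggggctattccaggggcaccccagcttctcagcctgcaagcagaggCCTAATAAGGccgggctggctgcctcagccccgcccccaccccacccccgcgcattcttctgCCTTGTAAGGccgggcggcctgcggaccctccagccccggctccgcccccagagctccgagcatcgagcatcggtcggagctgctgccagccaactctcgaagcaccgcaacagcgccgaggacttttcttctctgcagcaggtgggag

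Fgf17 stood at 90.8, 173, 69.0 and 123 FPKM in AAV-FGF17 libraries 1 to 4, against 9.59, 1.43, 0.560 and 9.86 FPKM in control libraries 1 to 4, and was higher in every AAV-FGF17 sample. Control libraries 2 and 3 stood apart from the rest. Their FPKM sum was mitochondrially encoded to 44.5% and 30.9%, against 62.8% to 66.9% in the other 6 libraries. On the leading principal component (49.7% of variance) control library 3 lay at 44.57, the other 6 at -19.4 to -7.55, and control library 2 between them. The median tested gene stood above its mean there by 0.12 and 0.18 on the log2 scale. The members' changes and correlations are therefore also given without these libraries, while the ratios and the counts of the marker lists rest on all 8. Without control libraries 2 and 3, the only controls are libraries 1 and 4, which lay close together on that component (-9.38 and -9.40) and in Fgf17.

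All 9 smooth muscle genes averaged lower in AAV-FGF17 samples than in control samples, at 49.3% (Tpm2) to 85.0% (Mylk) of the control mean, but none passed the threshold over all genes. In limma on log2(FPKM + 1), 0 of the 9 members and 0 of 10025 genes tested (0%) reached an adjusted p of 0.05. At an unadjusted p under 0.05, 7 of the 9 were lower and 0 higher, against 7.98% of all genes lower and 1.36% higher at that level. All 4 AAV-FGF17 samples lay below all 4 controls in 3 of the 9 (Tagln, Smtn and Tpm2), against 4.64% of all genes, and above them in 0 of the 9, against 0.998% of all genes. The median log2 change of the 9 members was -0.62, and that of all tested genes was -0.12. After median-of-ratios scaling, which brought the median of all genes to 0.00, the members' median was -0.48 and 7 of the 9 were still lower at an unadjusted p under 0.05, against 3.88% of all genes. That scaling put 462 genes higher and 388 lower at this level, against 136 higher and 800 lower as deposited. The members' count was 4 without AAV-FGF17 library 2 (3.22% of all genes), 4 after rescaling without mitochondrially encoded genes (3.17%) and 3 with array quality weights (5.17%). Without control libraries 2 and 3, the members' median was -0.40 and that of all genes -0.02, and 2 of the 9 were lower at an unadjusted p under 0.05, against 2.39% of all genes. Less RNA per smooth muscle cell and fewer smooth muscle cells cannot be told apart in whole hearts. Neither can be told from differences shared by whole libraries or from expression of these genes in other cell types.

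Acta2, the smooth muscle actin of the thin filament, was the most abundant member (chromosome 19, 34241090 to 34255336, minus strand; all positions are gene bodies in GRCm38). It measured 93.4, 51.5, 85.1 and 65.9 FPKM in AAV-FGF17 libraries 1 to 4, against 91.6, 119.6, 119.8 and 93.9 FPKM in control libraries 1 to 4. Of the AAV-FGF17 samples, libraries 2 and 4 were low and libraries 1 and 3 lay close to control libraries 1 and 4, so that the groups overlapped in library 1 alone. The means were 74.0 ± 18.9 FPKM with AAV-FGF17 and 106 ± 15.6 FPKM in controls (SD, n = 4 each). The log2 change was -0.54 ± 0.19 (SE; 95% interval -0.97 to -0.11; limma adjusted p = 0.495), and -0.36 without control libraries 2 and 3 (95% interval -0.87 to 0.15).

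Tpm2, which encodes beta-tropomyosin, an actin-binding coiled coil that slow skeletal muscle also uses, lies on chromosome 4 at 43514711 to 43523765 on the minus strand. It measured 19.4, 15.2, 16.9 and 20.0 FPKM in AAV-FGF17 samples, against 26.3, 34.3, 62.9 and 21.6 FPKM in control samples. The AAV-FGF17 samples were close together and below every control, while control library 3 was by far the highest. The log2 change of -0.87 ± 0.28 (SE; 95% interval -1.49 to -0.25; limma adjusted p = 0.495) was the lowest of the 9, and was -0.40 without control libraries 2 and 3.

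Tagln, or SM22, a calponin-related actin-binding protein and a classical early smooth muscle marker, lies on chromosome 9 at 45929619 to 45936058 on the minus strand. It measured 23.9, 11.3, 20.8 and 15.9 FPKM in AAV-FGF17 samples, against 25.6, 36.9, 43.4 and 24.4 FPKM in control samples. The groups did not overlap, although the highest AAV-FGF17 sample (library 1, 23.9 FPKM) lay just under the lowest control (library 4, 24.4 FPKM). The log2 change was -0.83 ± 0.25 (SE; 95% interval -1.39 to -0.28; limma adjusted p = 0.495) and -0.51 without control libraries 2 and 3. Of the 50-base words of its transcripts, 58.3% also occur in transcripts of other genes, mostly the antisense gene Gm48529, and the strand setting of the counting is not given in the sources used here, so its value is uncertain.

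Cnn1, calponin, which damps actomyosin activity and marks mature smooth muscle, lies on chromosome 9 at 22099216 to 22109630 on the plus strand. It measured 5.33, 1.05, 3.55 and 2.99 FPKM in AAV-FGF17 samples, against 4.43, 4.41, 6.59 and 4.88 FPKM in control samples. Library 2 of the AAV-FGF17 group was the lowest and library 1 of that group exceeded 3 of the 4 controls. With a 6.29-fold range over the 8 libraries, it had the widest range of the 9, and its log2 change of -0.62 ± 0.30 (SE; 95% interval -1.28 to 0.05; limma adjusted p = 0.495) has an interval that holds 0. Without AAV-FGF17 library 2 the log2 change was -0.31, and without control libraries 2 and 3 it was -0.53.

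Lmod1, leiomodin 1, which nucleates actin filaments in smooth muscle, lies on chromosome 1 at 135324807 to 135368065 on the plus strand. It measured 6.11, 2.66, 4.50 and 3.34 FPKM in AAV-FGF17 samples, against 5.79, 5.43, 9.44 and 5.78 FPKM in control samples. As for Acta2, AAV-FGF17 library 1 lay among the controls and the other 3 below them. Its log2 change was -0.58 ± 0.23 (SE; 95% interval -1.09 to -0.07; limma adjusted p = 0.495), and -0.44 without control libraries 2 and 3.

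Smtn, smoothelin, a cytoskeletal protein of contractile smooth muscle with a larger form in vessels, lies on chromosome 11 at 3517523 to 3540612 on the minus strand. It measured 18.3, 16.6, 20.0 and 14.7 FPKM in AAV-FGF17 samples, against 21.2, 26.4, 41.1 and 23.3 FPKM in control samples. The groups did not overlap, and the AAV-FGF17 samples lay closer together than the controls. Smtn had a log2 change of -0.62 ± 0.20 (SE; 95% interval -1.06 to -0.19; limma adjusted p = 0.495), and -0.35 without control libraries 2 and 3. Antisense transcripts hold 9.46% of its 50-base words.

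Myh11, the heavy chain of smooth muscle myosin and the most restricted marker of the 9, lies on chromosome 16 at 14194527 to 14291408 on the minus strand. It measured 25.8, 13.02, 21.6 and 13.9 FPKM in AAV-FGF17 samples, against 23.8, 25.1, 43.5 and 25.5 FPKM in control samples. AAV-FGF17 libraries 2 and 4 averaged 13.5 FPKM and libraries 1 and 3 averaged 23.7 FPKM, against 24.7 FPKM in control libraries 1 and 4 and 34.3 FPKM in control libraries 2 and 3. Over all libraries the log2 change was -0.65 ± 0.25 (SE; 95% interval -1.21 to -0.09; limma adjusted p = 0.495), and -0.44 without control libraries 2 and 3.

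Myl9, the regulatory light chain that the kinase phosphorylates, lies on chromosome 2 at 156775420 to 156781658 on the plus strand. It measured 38.8, 32.6, 53.8 and 32.5 FPKM in AAV-FGF17 samples, against 47.1, 71.7, 75.5 and 50.5 FPKM in control samples. The groups overlapped through AAV-FGF17 library 3. The log2 change was -0.62 ± 0.21 (SE; 95% interval -1.08 to -0.16; limma adjusted p = 0.495), and -0.33 without control libraries 2 and 3.

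Mylk, the myosin light chain kinase, whose locus also gives a non-muscle form and the short protein telokin, lies on chromosome 16 at 34745210 to 35002420 on the plus strand. It measured 5.81, 4.37, 5.43 and 4.13 FPKM in AAV-FGF17 samples, against 5.43, 6.28, 6.04 and 5.47 FPKM in control samples. Its values spanned 1.52-fold over the 8 libraries, the least of the 9, and AAV-FGF17 libraries 2 and 4 were again the low ones. Mylk had a log2 change of -0.21 ± 0.13 (SE; 95% interval -0.49 to 0.07; limma adjusted p = 0.505), or -0.09 relative to the median gene, and -0.13 without control libraries 2 and 3.

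**Figure D1:**
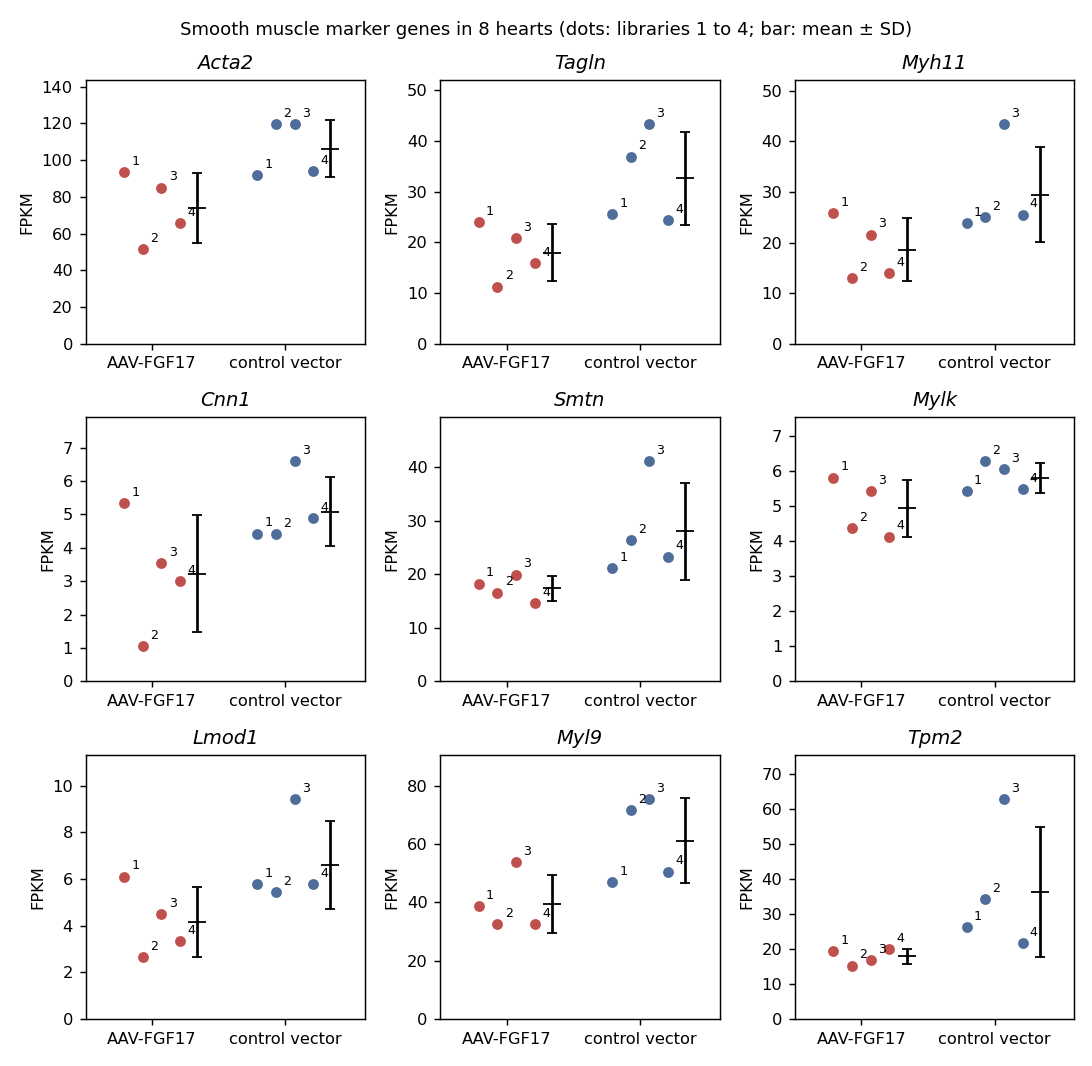
FPKM of each smooth muscle marker gene (y axis, from 0) in the AAV-FGF17 and control vector samples (x axis), with 1 dot for each library, its number beside it, and a bar for the mean ± SD of the 4 libraries of a group. AAV-FGF17 library 2 was the lowest of the 8 in 6 genes and library 4 in 3 genes, and control library 3 was the highest in 8 genes.

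**Figure D2:**
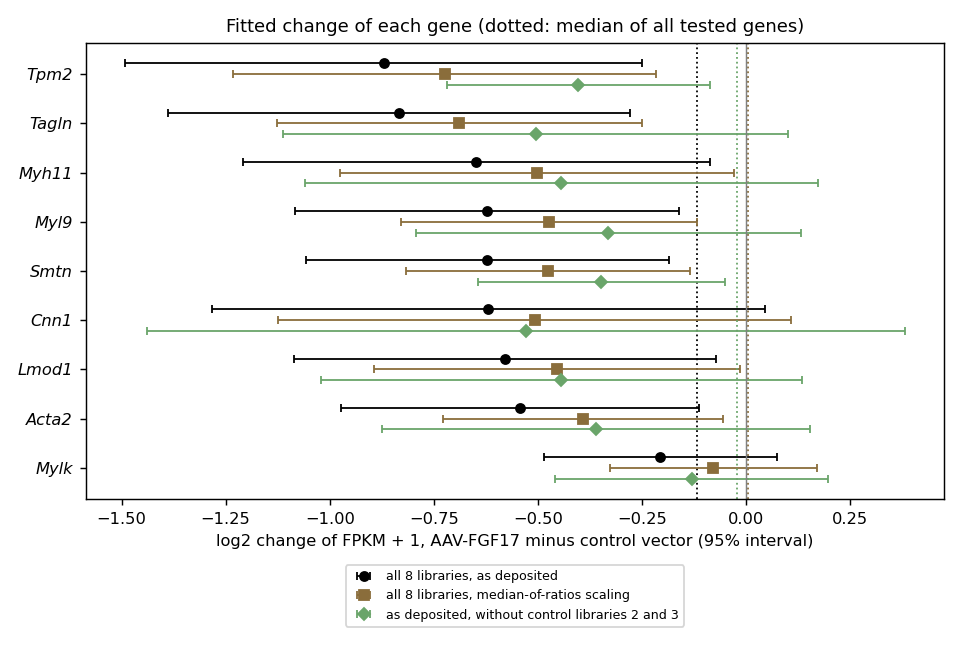
Log2 change of FPKM + 1, AAV-FGF17 minus control vector (x axis), of each gene (y axis) with its 95% interval from limma, in all 8 libraries as deposited, after median-of-ratios scaling, and without control libraries 2 and 3. Dotted lines mark the median of all tested genes, which lay at -0.12, 0.00 and -0.02. Every point is below 0, and 2 of the 9 intervals without control libraries 2 and 3, those of Smtn and Tpm2, end below 0.

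The order of levels was Acta2 (90.1 FPKM over the 8 libraries), Myl9 (50.3), Tpm2 (27.1), Tagln (25.3), Myh11 (24.0), Smtn (22.7), Lmod1 (5.38), Mylk (5.37) and Cnn1 (4.16). Acta2 exceeded Myl9 and Myl9 exceeded Tpm2 in 8 of 8 libraries, and Smtn exceeded Lmod1 in 8 of 8. Tpm2, Tagln, Myh11 and Smtn were not ordered beyond their spread, since each exceeded the next in 3 to 5 of the 8 libraries. Lmod1 exceeded Mylk in 4 of 8 libraries, and Mylk exceeded Cnn1 in 7 of 8. For Tagln, Cnn1, Smtn, Myl9 and Tpm2 the deposited values are scaled to the exonic bases of all transcripts together, such as 2736 bases for Cnn1 and 1988 for Tagln. For Mylk the length found in the values was 10159 bases, against 11263 exonic bases in GENCODE M21, and for Acta2, Myh11 and Lmod1 no length could be read from the values. Levels of different members are therefore not all on a single known length scale.

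Whether members differed from each other in their change was read from the difference of their log2(FPKM + 1) values within each library, called the log2 ratio here, in which the library's scaling cancels except for the effect of the pseudocount. Of the 36 pairs, 4 reached 0.0286, the smallest two-sided exact permutation p that 4 against 4 allows, and the smallest value adjusted over the 36 was 0.257, so no pair passed. Of those 4 pairs, 3 involved Mylk. The Tagln to Mylk ratio averaged 1.64 ± 0.30 on the log2 scale in AAV-FGF17 samples, against 2.27 ± 0.31 in control samples (SD, n = 4 each; exact permutation p = 0.0286, adjusted 0.257). The Smtn to Mylk ratio differed less, by -0.42, at 1.63 ± 0.10 in AAV-FGF17 samples against 2.05 ± 0.36 in control samples, and the Acta2 to Mylk ratio stood at 3.63 ± 0.23 in AAV-FGF17 samples against 3.97 ± 0.13 in control samples. The remaining pair was Acta2 and Tagln, with a log2 ratio of 1.995 ± 0.07 in AAV-FGF17 samples, against 1.70 ± 0.20 in control samples. By contrast the Myh11 to Lmod1 ratio was 1.92 ± 0.11 in AAV-FGF17 samples against 1.99 ± 0.09 in control samples (exact permutation p = 0.371, adjusted 0.758).

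The 9 genes varied together over the samples. After the median of each library was set level, Pearson's r over the 8 libraries was above 0 in all 36 pairs, with a median of 0.76 and a range of 0.11 to 0.98. Over all 50245300 pairs of tested genes the median r was -0.00, and 5.27% of pairs had an r of at least the members' median. As deviations from the group means, which takes the group difference out, the members' median was 0.57, and 15.4% of all pairs reached that. Without control libraries 2 and 3 it was 0.72 over 6 libraries, reached by 6.80% of all pairs.

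The tightest pair was Myh11 and Lmod1, with r = 0.98 (exact permutation p = 0.000149, adjusted over 36 pairs 0.00268) and Spearman's rho = 0.95 (p = 0.00114, adjusted 0.0134), n = 8. Without the 2 libraries farthest from the median of Myh11, AAV-FGF17 2 and 4, r was 0.96. Acta2 and Tagln had r = 0.96 (exact permutation p = 0.000273, adjusted 0.00327) and rho = 0.90 (p = 0.00456, adjusted 0.0235), and r = 0.93 without the same 2 libraries. Cnn1 and Lmod1 had r = 0.90 (exact permutation p = 4.96e-05, adjusted 0.00179) and rho = 0.98 (p = 0.000397, adjusted 0.00714), and r = 0.92 without those 2. The relation of Acta2 to Cnn1 rests on those 2 libraries, since r was 0.88 over the 8 (exact permutation p = 0.00551, adjusted 0.0227; rho = 0.74, p = 0.0458, adjusted 0.103) and 0.33 without them. Over all 36 pairs, r passed an adjusted exact permutation p of 0.05 in 18 and rho in 8. The share of all gene pairs that would pass was not computed, so these counts have no background. In the 18, r without the 2 libraries farthest from the median of the first gene ran from 0.33 to 0.96. Acta2 with Lmod1, Smtn with Lmod1 and Acta2 with Myh11 also fell low, to 0.40, 0.42 and 0.46.

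Mylk had the lowest median r with the other 8 members, 0.56 over the 8 libraries, although it was 0.75 without control libraries 2 and 3. The lowest r of any pair was that of Mylk with Tpm2, at 0.11 (exact permutation p = 0.772, adjusted 0.772; rho = 0.24, p = 0.582, adjusted 0.582; r = -0.61 without AAV-FGF17 libraries 2 and 4). Cnn1 and Tpm2 had medians of 0.69 and 0.71 over the 8 libraries, and of 0.74 and 0.50 without control libraries 2 and 3. Myh11, Tagln and Acta2 had medians of 0.85, 0.85 and 0.83, and without control libraries 2 and 3 of 0.89, 0.84 and 0.87.

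**Figure D3:**
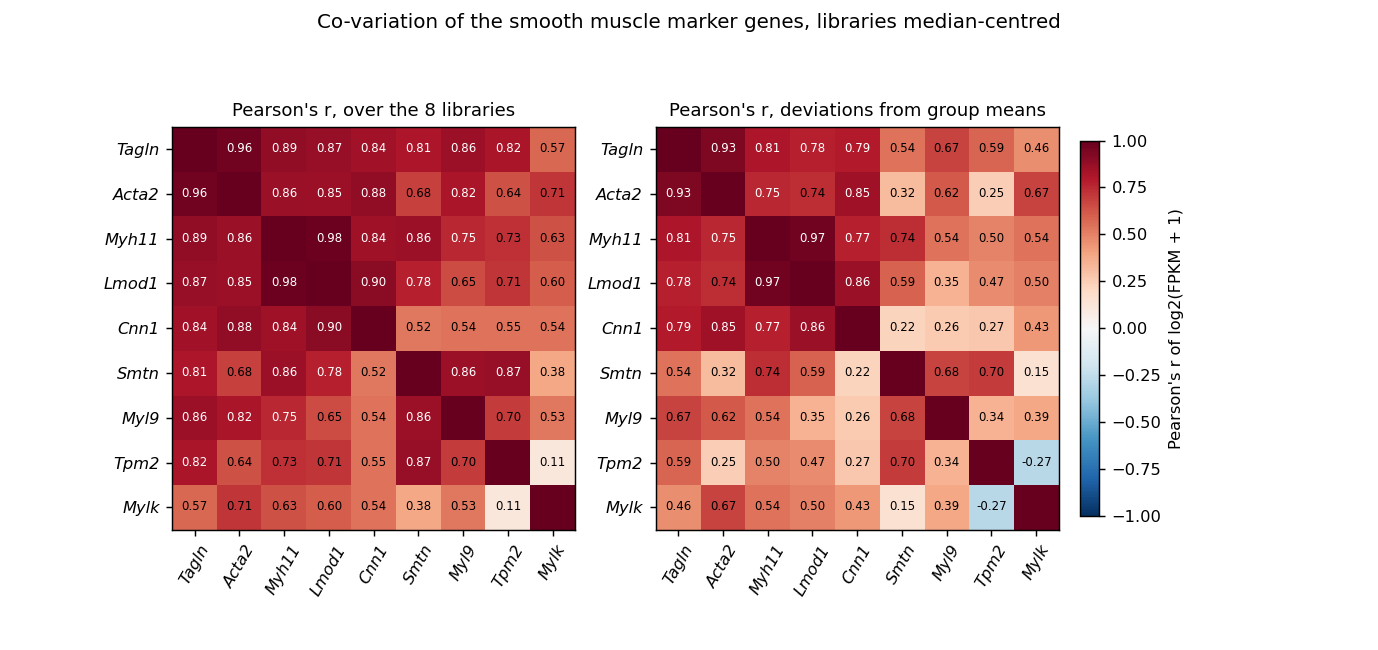
Pearson's r between the 9 genes (both axes) over the 8 libraries on the left and of deviations from the group means on the right, with red for r above 0 and blue for r below 0. The block of Tagln, Acta2, Myh11, Lmod1 and Cnn1 stays at 0.74 or above in both panels, and Mylk with Tpm2 is the single pair below 0 on the right, at -0.27.

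With predicted gene models (Gm and Rik names) left out, the 10 other genes most like the members' mean profile were taken. They had r of 0.95 to 0.98 with it over 8 libraries, where the median tested gene had 0.02. They were Rarres2, Gpd1, Sbk2, Ptgfrn, Zmym3, Phkg1, Cgnl1, AC140267.1, Col18a1 and Plxnb2. Rarres2, which encodes the adipokine chemerin, measured 10.99, 7.43, 10.2 and 9.05 FPKM in AAV-FGF17 samples, against 10.4, 12.7, 14.5 and 10.9 FPKM in control samples (r = 0.98). Gpd1, the cytosolic glycerol-3-phosphate dehydrogenase of fat and muscle, measured 13.04, 4.32, 14.9 and 4.65 FPKM in AAV-FGF17 samples, against 21.2, 29.7, 46.3 and 20.9 FPKM in control samples (r = 0.97). Sbk2, a kinase gene, measured 6.96, 2.09, 6.28 and 2.34 FPKM in AAV-FGF17 samples, against 6.43, 7.13, 14.7 and 7.06 FPKM in control samples (r = 0.96). Col18a1, a basement membrane collagen, measured 2.06, 0.945, 1.71 and 1.21 FPKM in AAV-FGF17 samples, against 2.46, 4.31, 7.06 and 2.65 FPKM in control samples (r = 0.96). In each of these 4 genes AAV-FGF17 libraries 2 and 4 were the lowest and control library 3 the highest. The members' mean profile has the same low and high libraries and the genes were chosen by it, so this is no separate result. The r of all 10 are the highest among the tested genes that are neither members nor predicted gene models, and carry no test. The other 6 averaged 1.47 (AC140267.1) to 15.0 FPKM (Cgnl1) over the 8 libraries, and none of the 10 passed limma over all genes (adjusted p = 0.495 each).

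The wider smooth muscle programme was read through 4 lists, and no gene of any of them passed limma over all genes (0 of 20, 0 of 16, 0 of 16 and 0 of 8 tested). Of 20 cytoskeletal genes, 4 were lower at an unadjusted p under 0.05 and 0 higher (against 7.98% of all genes lower and 1.36% higher, as for every list that follows), with a median log2 change of -0.25. Actg2, the enteric smooth muscle actin, averaged 0.736 ± 0.362 FPKM in AAV-FGF17 samples and 1.45 ± 0.448 FPKM in control samples (SD, n = 4 each; log2 change -0.50, limma adjusted p = 0.495). Actn1, an actin cross-linker, stood at 4.45 ± 0.652 FPKM with AAV-FGF17 and 5.89 ± 0.602 FPKM in controls, and Ilk, the integrin-linked kinase, at 10.2 ± 0.980 FPKM with AAV-FGF17 and 13.99 ± 3.33 FPKM in controls. The abundant Tpm1 and Des, alpha-tropomyosin and desmin of heart muscle too, stood at 771 ± 37.1 FPKM with AAV-FGF17 and 1446 ± 855 FPKM in controls and at 257 ± 35.3 FPKM with AAV-FGF17 and 377 ± 216 FPKM in controls, with control libraries 2 and 3 the highest in both.

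Of 16 tested genes that control contraction, 1 was lower and 1 higher at an unadjusted p under 0.05, a share of lower genes near the 7.98% of all genes, with a median log2 change of -0.18. Agtr1a, the angiotensin II type 1a receptor, was the higher one, at 6.79 ± 0.609 FPKM in AAV-FGF17 samples and 4.37 ± 0.474 FPKM in control samples (log2 change 0.54, limma adjusted p = 0.495). Gucy1b3, a subunit of the nitric oxide receptor guanylate cyclase, was the lower one, at 9.02 ± 0.799 FPKM with AAV-FGF17 and 10.99 ± 0.715 FPKM in controls. Itpr1, a calcium release channel, stood at 2.22 ± 0.348 FPKM with AAV-FGF17 and 2.94 ± 0.493 FPKM in controls. Rock1 and Rhoa, which restrain myosin phosphatase, stood at 32.2 ± 2.07 FPKM with AAV-FGF17 and 29.0 ± 3.67 FPKM in controls and at 28.5 ± 2.25 FPKM with AAV-FGF17 and 30.9 ± 3.09 FPKM in controls.

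Of 16 tested regulators of the programme, 1 was lower and 0 higher at an unadjusted p under 0.05, with a median log2 change of -0.10, close to the -0.12 of all genes. That gene was Csrp2, a LIM protein partner of serum response factor, at 7.95, 4.57, 8.90 and 6.4996 FPKM in AAV-FGF17 samples, against 8.08, 14.9, 30.2 and 9.53 FPKM in control samples (log2 change -0.92, limma adjusted p = 0.495). Its r with the members' mean profile was 0.91. Srf itself stood at 9.64 ± 1.202 FPKM with AAV-FGF17 and 11.7 ± 2.40 FPKM in controls (log2 change -0.24, limma adjusted p = 0.507), with an r of 0.34. Tgfbr2, a TGF-beta receptor, stood at 5.51 ± 0.898 FPKM with AAV-FGF17 and 7.02 ± 1.71 FPKM in controls, Fhl2, abundant in heart muscle, at 319 ± 26.3 FPKM with AAV-FGF17 and 360.1 ± 117 FPKM in controls, and Gata6, a cardiac and smooth muscle transcription factor, had a log2 change of -0.05 (limma adjusted p = 0.835). Of 8 tested genes of smooth muscle identity, 0 were lower or higher at that level, with a median log2 change of -0.20. Itga8, the integrin alpha 8 chain, stood at 2.16 ± 1.06 FPKM with AAV-FGF17 and 3.26 ± 0.737 FPKM in controls with an r of 0.80, and Npnt, its ligand nephronectin, at 1.03 ± 0.749 FPKM with AAV-FGF17 and 1.94 ± 0.772 FPKM in controls with an r of 0.54. The most abundant of the list were Pln, phospholamban, at 265 ± 7.06 FPKM with AAV-FGF17 and 379 ± 155 FPKM in controls, and Fbxo32, a ubiquitin ligase subunit, at 25.7 ± 2.63 FPKM with AAV-FGF17 and 28.5 ± 4.27 FPKM in controls.

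Of the lists of other cell types, the atrial, mesothelial, endothelial and white adipocyte scores had the highest r with the members' mean profile over the 8 libraries, at 0.81, 0.80, 0.78 and 0.75, and at 0.97, 0.83, 0.65 and 0.64 without control libraries 2 and 3. The order was not stable, since without those libraries the myofibroblast r went from 0.61 to 0.92 and the ventricular r from 0.60 to -0.83. As deviations from group means the first 4 had r of 0.76, 0.45, 0.53 and 0.48, and the fibroblast score had 0.58. These r describe libraries that share their tissue and scaling, and carry no test. For the 8 atrial markers the median log2 change was -1.05, each of the 8 had a log2 change under that of the median gene, 4 were lower at an unadjusted p under 0.05 (against 7.98% of all genes), and none passed limma over all genes. Their summed FPKM was 1953, 570, 1926 and 871 in AAV-FGF17 libraries 1 to 4, against 2298, 1408, 3178 and 2319 in control libraries 1 to 4. The low libraries of the AAV-FGF17 group, 2 and 4, were those in which the smooth muscle members were low. Nppa, the atrial natriuretic peptide, averaged 950 ± 487 FPKM in AAV-FGF17 samples and 1609 ± 430 FPKM in control samples, and Myl7, the atrial light chain, 252 ± 149 FPKM with AAV-FGF17 and 447 ± 193 FPKM in controls. No atrial marker was at 0 in any library. The log2 ratio of a member to Nppa averaged higher in AAV-FGF17 samples for all 9 members, by 0.02 to 0.69, with exact permutation p-values of 0.171 to 0.943 (adjusted over 45 ratios 0.351 to 0.943). Nppa's own log2 change of -0.89 was below that of each member, and this alone sets the direction of the 9 ratios. The share of the atrial markers in the members' difference was not tested. The same AAV-FGF17 libraries, 2 and 4, had the most Fgf17 (173 and 123 FPKM, against 90.8 and 69.0 in libraries 1 and 3), and with 4 libraries no relation was computed.

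Among the control libraries, library 3 had the highest atrial and smooth muscle scores, 1.07 and 0.56, and libraries 1 and 4 had atrial scores of 0.65 and 0.59 and smooth muscle scores of 0.11 each. Control library 2 combined the lowest atrial score of the controls, -0.60, with a smooth muscle score of 0.21. In AAV-FGF17 libraries 1 and 3, 8 of the 9 members averaged below control libraries 1 and 4, by small steps for most. Acta2 averaged 89.2 FPKM in that AAV-FGF17 pair against 92.8 FPKM in that control pair, and Tpm2 18.1 FPKM in the AAV-FGF17 pair against 23.9 FPKM in the control pair. Mylk was the exception, at 5.62 FPKM in the AAV-FGF17 pair against 5.45 FPKM in the control pair. These 4 libraries were compared after their values were seen, and no test was made.

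Other cell types of the vessel wall and heart were read beside the members, with all of their listed markers above 0 in all 8 libraries. The 11 pericyte markers had a median log2 change of -0.08, with 2 lower and 0 higher at an unadjusted p under 0.05 (7.98% and 1.36% of all genes), and a summed level of 231 to 255 FPKM in AAV-FGF17 samples and 227 to 263 FPKM in control samples. Rgs5, a pericyte regulator of G protein signalling, stood at 150.2 ± 12.9 FPKM with AAV-FGF17 and 137 ± 8.89 FPKM in controls, and Abcc9, a channel subunit of pericytes, at 31.6 ± 5.41 FPKM with AAV-FGF17 and 28.0 ± 4.24 FPKM in controls. Neither was among the 2 lower markers, and their log2 changes were 0.13 and 0.16. The log2 ratio of a member to Rgs5 averaged lower in AAV-FGF17 samples for all 9 members, and for 4 of them (Acta2, Tagln, Smtn and Tpm2) at the smallest exact permutation p of 0.0286 (adjusted over 45 ratios 0.0989). Rgs5's own change is part of each ratio, and the median tested gene, at -0.12, would also have a lower ratio to it. The share of all genes with such a ratio was not computed. Rgs5 had an r of -0.91 with the members' mean profile. The 8 fibroblast markers had a median log2 change of 0.09, with 0 lower and 2 higher at an unadjusted p under 0.05 (7.98% and 1.36% of all genes). Their summed level was 210 to 259 FPKM with AAV-FGF17 against 219 to 244 FPKM in controls. Dcn, the fibroblast proteoglycan decorin, stood at 107 ± 7.75 FPKM with AAV-FGF17 and 80.3 ± 12.2 FPKM in controls, and all 9 members had a lower ratio to it in AAV-FGF17 samples, each at an exact permutation p of 0.0286 (adjusted 0.0989). Dcn itself had no overlap between the groups (log2 change 0.42, limma adjusted p = 0.495), above the list's median of 0.09. Its own difference is part of each of these ratios, and the median tested gene, at -0.12, would also have a lower ratio to it. The share of all genes with such a ratio to Dcn was not computed either. Dpt, dermatopontin, stood at 61.7 ± 9.00 FPKM with AAV-FGF17 and 59.0 ± 6.54 FPKM in controls. The ratios were taken to genes whose values were known.

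The 10 endothelial markers had a median log2 change of -0.34, with 3 lower and 0 higher at an unadjusted p under 0.05 (7.98% and 1.36% of all genes), and summed to 132 to 169 FPKM in AAV-FGF17 samples, against 171 to 219 FPKM in control samples. Cdh5, VE-cadherin, stood at 43.6 ± 5.26 FPKM with AAV-FGF17 and 56.04 ± 8.31 FPKM in controls, and Pecam1 at 25.3 ± 3.68 FPKM with AAV-FGF17 and 32.0 ± 1.11 FPKM in controls. None of the 9 members differed from Cdh5 in its change at the smallest p, and the log2 ratios differed by -0.52 to 0.15. The same held for ratios to Mb, the most abundant ventricular marker, with 0 of 9 at the smallest exact permutation p and differences of -0.53 to 0.14. The 9 ventricular markers summed to 12500 to 13592 FPKM with AAV-FGF17 against 12408 to 27614 FPKM in controls, with control libraries 2 and 3 high, and Mb, myoglobin, and Myh6, the cardiac myosin heavy chain, led them at 3988 ± 301 FPKM with AAV-FGF17 and 5279 ± 1755 FPKM in controls and at 2718 ± 292 FPKM with AAV-FGF17 and 4323 ± 2193 FPKM in controls. Of 7 tested white adipocyte markers, 6 were lower at an unadjusted p under 0.05 (7.98% of all genes) and the median log2 change was -1.01, and of 7 mesothelial markers 4 were lower with a median of -0.46, so that both lists held shares of lower genes above the background, as the members did. The 8 listed white adipocyte markers summed to 51.5 to 209 FPKM with AAV-FGF17 against 147 to 354 FPKM in controls, led by Cfd (44.7 ± 34.4 FPKM with AAV-FGF17 and 109.5 ± 68.4 FPKM in controls) and Car3 (36.6 ± 26.1 FPKM with AAV-FGF17 and 66.6 ± 19.3 FPKM in controls). The 7 mesothelial markers summed to 8.72 to 18.7 FPKM with AAV-FGF17 against 22.3 to 26.9 FPKM in controls, led by Krt19 (2.91 ± 1.07 FPKM with AAV-FGF17 and 6.98 ± 2.07 FPKM in controls) and Upk3b (2.58 ± 1.15 FPKM with AAV-FGF17 and 4.63 ± 0.693 FPKM in controls). The 9 elastic fibre genes, which smooth muscle and fibroblasts both make, summed to 31.8 to 51.2 FPKM with AAV-FGF17 against 47.1 to 60.9 FPKM in controls, with Fbln2 at 9.97 ± 1.65 FPKM with AAV-FGF17 and 11.1 ± 2.75 FPKM in controls and Mfap4 at 6.84 ± 3.39 FPKM with AAV-FGF17 and 8.92 ± 1.49 FPKM in controls. The 6 listed of 7 myofibroblast genes summed to 38.8 to 72.3 FPKM with AAV-FGF17 against 55.3 to 79.7 FPKM in controls, led by Ctgf (42.8 ± 10.8 FPKM with AAV-FGF17 and 43.3 ± 14.7 FPKM in controls) and Postn (8.19 ± 2.22 FPKM with AAV-FGF17 and 10.3 ± 1.61 FPKM in controls). The 4 listed of 8 skeletal muscle genes summed to 51.8 to 386 FPKM with AAV-FGF17 against 73.7 to 233 FPKM in controls, nearly all of it Acta1, which is expressed in heart too. Median log2 changes were -0.40 for the 9 ventricular, -0.34 for the 9 elastic fibre and -0.38 for the 4 tested myofibroblast genes. Of these lists 1, 2 and 1 genes were lower and 0 higher at an unadjusted p under 0.05 (7.98% and 1.36% of all genes). The share of the cell types above in the members' difference was not tested.

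**Figure D4:**
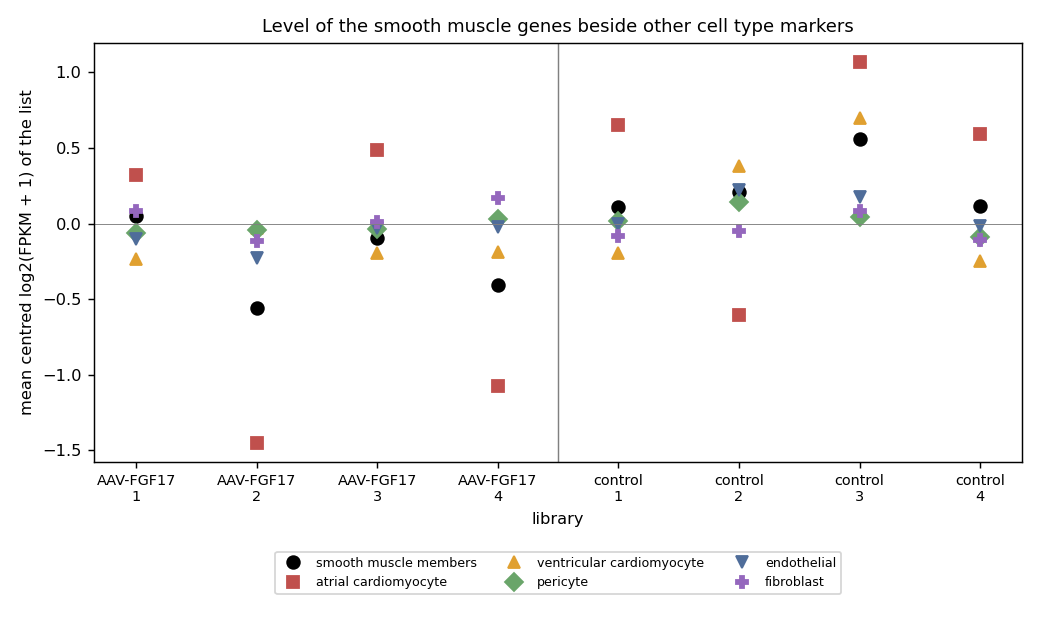
Score of the smooth muscle members and of 5 marker lists of other cell types (y axis, mean over the list of log2(FPKM + 1), each gene centred on its mean and each library on its median) in each library (x axis). The smooth muscle score was -0.56 and -0.40 in AAV-FGF17 libraries 2 and 4 and 0.05 and -0.09 in libraries 1 and 3, and control libraries 1 to 4 scored 0.11, 0.21, 0.56 and 0.11.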

How the data were processed

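Total RNA of 8 heart samples was sequenced after a Trizol extraction and a standard Illumina preparation, per the labels' protocols. FastQC 0.11.7, cutadapt 1.17, HISAT2 2.1.0, StringTie 1.3.3 and GRCm38 are named in the submitters' processing notes, with no settings. Per the file headers, the authors deposited 1 FPKM value for each gene in each sample. The larger group mean was at least 0.501 FPKM in every deposited gene. Of 9959 genes with more than 6 decimals, 93.6% had a value that times the exonic bases of all GENCODE M21 transcripts was a whole number of millionths (within 0.05). Depth is unknown, so precision rests on the spread between samples. File columns carry the word sham and the title of the series names infarction, while sample labels give transduction only. The labels do not say that replicates are separate animals, so p-values measure the spread between samples, which may be technical. Control libraries 1 and 4 were alike in the members and were kept as 2 samples, since sampling noise cannot be computed from FPKM.

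The 10025 genes averaging 1 FPKM or more over the 8 libraries, all 9 members among them, were tested on log2(FPKM + 1), a scale that understates the change of low genes. limma 3.58.1 in R 4.3.3 was used with a variance trend, no covariates and Benjamini-Hochberg adjustment over all tested genes at 0.05. Single ratios and correlations had two-sided exact permutation tests. Tested on simulated data for this comparison over 10025 genes, limma called 72% of the 2-fold and 96% of the 4-fold changes, beside 14 false calls. The simulated noise was independent for each gene and held no differences shared by whole libraries, as control libraries 2 and 3 have. These shares are therefore not the power in the real data, where 0 of 10025 genes passed and Fgf17 itself did not pass. Members, lists and tests were chosen with earlier results of these data known. The text names every member, the 3 genes of smallest p and the 2 most abundant of each smooth muscle list, and the 2 most abundant of each other cell-type list. It also names the 10 other genes most correlated with the members' mean profile, predicted gene models left out. Alternatives changed the pseudocount, the filter, the scaling, the library weights, the replicate block and the libraries used.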

Additional observations from a re-analysis of the deposited data

Results flagged for a closer look

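Of 18 groups of 4 libraries (9 members in both groups), 2 held a library whose gap to its nearest neighbour took most of the group's range, where chance alone flags about 1 group in 20. Both were control library 3. Its Myh11 level, 43.5 FPKM, left a gap of 0.888 of the range on the log2 scale, and its Lmod1 level, 9.44 FPKM, a gap of 0.886. This library also had the lowest mitochondrially encoded share, 30.9%, whose part in these values was not tested.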

How the results depend on the processing

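All 9 members kept a log2 change below 0 in all 135 combinations of a member and an alternative. These are not separate checks, since the alternatives use the same libraries. Dropping the filter or adding the replicate block leaves each log2 change as it was. In the 15 alternatives 0 of the 9 passed the threshold, with adjusted limma p-values of 0.290 to 0.932. The members' median log2 change was -0.62 in the comparison as reported and -0.35 with array quality weights, where 3 of the 9 were lower at an unadjusted p under 0.05 against 5.17% of all genes. It ran from -0.75 to -0.48 when 1 library was left out. The number lower at an unadjusted p under 0.05, 7 as reported, was 4 after rescaling without mitochondrially encoded genes, 4 without AAV-FGF17 library 2, 2 without control libraries 2 and 3, and 7 after median-of-ratios scaling, where 3.88% of all genes were lower at that level. The members' median pairwise correlation was 0.76 as reported, 0.87 with libraries as deposited and 0.57 as deviations from group means, and ran from 0.72 to 0.84 when 1 library was left out. The causes of these shifts were not tested. No pairing by replicate number was seen. The deviations of same-numbered libraries correlated at 0.01, 0.00, 0.02 and -0.11, and 0 of 4 AAV-FGF17 libraries correlated best with its own number. With 4 libraries in a group, and control libraries 2 and 3 apart from the rest, these values cannot decide whether the numbers pair the samples. With the replicate number as a block the count past the threshold was 0. The median log2 change stayed at -0.62, which such a block cannot alter when both groups hold the same numbers. In that fit 8 of the 9 were lower at an unadjusted limma p under 0.05, against 8.17% of all genes. Without read counts, the depth limit of Cnn1, Lmod1 and Mylk, at 4 to 5 FPKM, cannot be stated.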
